A study of Homo sapiens with 3 samples.

Results

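The receptors described here are 10 receptor tyrosine kinases that matter for alveolar rhabdomyosarcoma: FGFR1, FGFR2, FGFR3, FGFR4, MET, ALK, PDGFRA, PDGFRB, KIT and EPHA7. They were chosen by gene name, with earlier results of these data known, so the shares given below are descriptions and not tests. Every probe set of the array that names only one of them was taken. This gave 32 probe sets out of 19064 that name 1 gene, and 10 genes out of 11963 so named. RH30, a single alveolar rhabdomyosarcoma cell line, was measured on 3 Affymetrix arrays. The first array came from cells given 10 µM of an anti-MYCN PNA (peptide nucleic acid, bases carried on a peptide-like chain that binds DNA), the second from cells given a mutated, inactive PNA at 10 µM, and the third from cells given no PNA, all taken at 12 hours in the same serum-containing medium. With 1 array per condition no value has a replicate error and no difference a test, so each comparison sets one array against another and no p-value is given.

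Receptor tyrosine kinases bind a growth factor outside the cell, pair up and phosphorylate each other on tyrosines, to which adaptor proteins dock that feed the RAS-ERK and PI3K-AKT routes. In alveolar rhabdomyosarcoma the fusion factor PAX3-FOXO1 binds near and activates FGFR4, MET and ALK, and MYCN is itself one of its targets. The other 7 receptors serve as the comparison.

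The array titled untreated carries a source name that speaks of the mutated PNA, so every direction between the 2 controls rests on its title. MYCN itself gave a signal of 2202 with the anti-MYCN PNA, against 2804 with the mutated PNA and 3313 in untreated cells, by its brightest probe set. All 24 probe sets for the poly-A spikes added before labelling were lower with the anti-MYCN PNA than on both controls, with a median ratio of 0.382 to mutated PNA. For beta-actin, the 3′ over 5′ signal, a sign of RNA integrity, was 1.99 with the anti-MYCN PNA, 1.73 with the mutated PNA and 2.11 in untreated cells. For GAPDH it was 1.09 with the anti-MYCN PNA, 1.02 with the mutated PNA and 1.02 in untreated cells. Of 11 markers of myogenic cells 7 passed the signal filter, among them MYOD1, MYOG and desmin, as did 1 of 6 epithelial markers (KRT18), and none of 3 leukocyte (of 5 listed), 4 endothelial and 5 fibroblast markers on the array did. The summed signal of the endothelial markers was 159 with the anti-MYCN PNA, 58.7 with the mutated PNA and 25.6 in untreated cells, and that of the fibroblast markers 397 with the anti-MYCN PNA, 225 with the mutated PNA and 173 in untreated cells. The leukocyte markers summed to 117 with the anti-MYCN PNA, 32.4 with the mutated PNA and 78.4 in untreated cells. These 3 sums were highest on the anti-MYCN PNA array. So was the myogenic sum, at 18152.5, against 15716 with the mutated PNA and 16120 in untreated cells. The epithelial sum was highest in untreated cells, at 827, against 608 with the anti-MYCN PNA and 505 with the mutated PNA. Among all probe sets under the filter, 50.7% were above both controls by any amount. The part of the spikes, the 3′ over 5′ ratios and these markers in the receptor differences was not tested.

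Of the 32 receptor probe sets, 17 passed the filter, set at an average signal of 117, the median of all gene probe sets. They stand for 7 of the 10 genes, since FGFR3, PDGFRB and KIT had none above it. The FGFR1 probe set 215404_x_at, with a mean of 146, lay just inside the filter, and 207937_x_at, with 113, just outside it. At 2-fold or more, the anti-MYCN PNA array was below both controls in 1 of the 17, EPHA7, against 1.64% of all 9899 probe sets that passed, and above both in none, against 1.18%. Against the mutated PNA alone 2 of 17 were lower, EPHA7 and 1 probe set of MET, against 2.73% of all, and none higher, against 2.74%. Against untreated EPHA7 was lower, against 2.78% of all, and 1 probe set of FGFR1 higher, against 3.01%. The mutated PNA array was 2-fold above untreated in none of the 17 and below it in none, against 0.364% and 0.465% of all. Each of these counts rests on 1 or 2 probe sets, too few to read against the background shares. Of the 15 receptor probe sets under the filter, 6 were above both controls by any amount and 6 below before the floor was set, against 50.7% and 24.7% of all 9165 probe sets there. At 2-fold, 3 of the 15 were above both and 1, the FGFR2 probe set 208229_at, below with a difference to untreated at the threshold itself, against 9.1% and 2.42%.

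**Figure D1:**
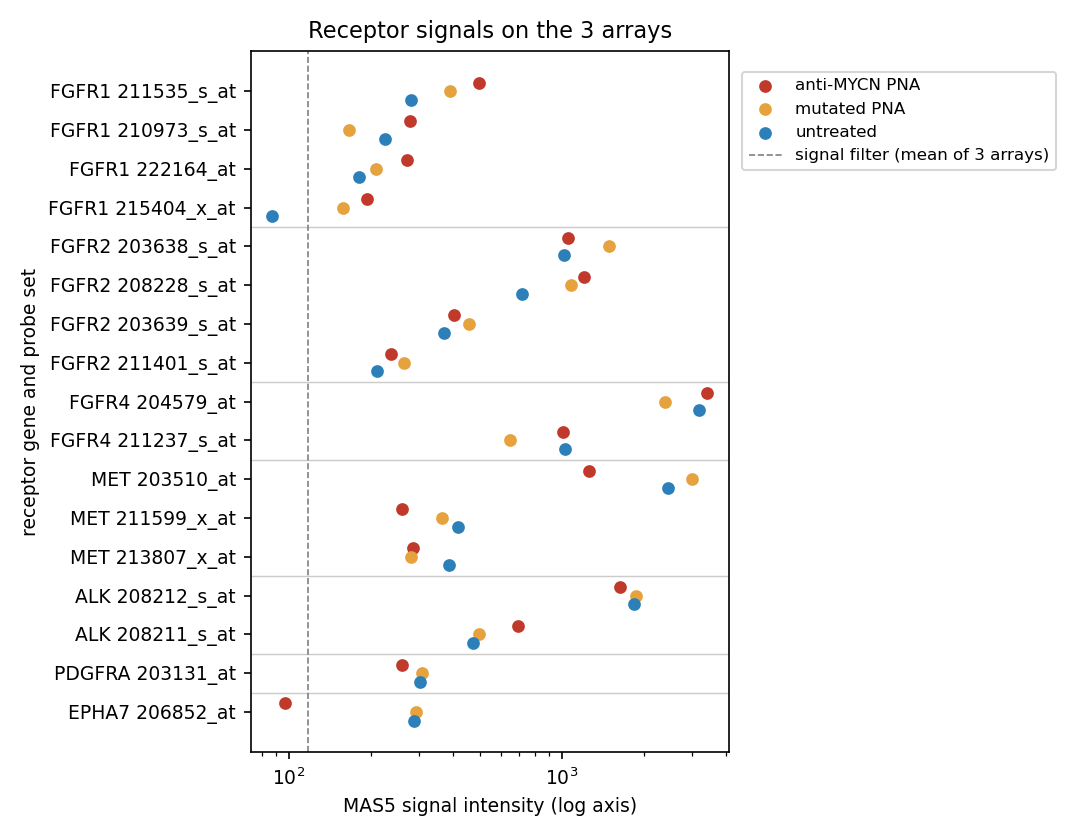
MAS5 signal intensity (horizontal log axis) of the 17 receptor probe sets that passed the filter, by gene and probe set (vertical axis), 1 point per array, with the signal filter of 117 as a dashed line. EPHA7 at 97.0 and the MET probe set 203510_at at 1254 stand apart from their 2 controls on the anti-MYCN PNA array, whereas both FGFR4 probe sets are lowest with the mutated PNA.

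As a yardstick, the difference between the 2 controls was taken over all probe sets of like signal, in 10 classes of about 990 probe sets. It holds array noise together with any effect of the mutated PNA, which 1 array each cannot tell apart. The range that holds 95% of these control differences narrowed from 0.94 on the log2 scale in the dimmest class to 0.28 in the brightest. By construction about 5.05% of all probe sets lie outside it between the controls. With the anti-MYCN PNA 30.9% lie outside it against mutated PNA and 30.1% against untreated, so a value outside this range is common on that array. The median difference between the anti-MYCN PNA array and the mean of its controls also varied with signal, from 0.19 in the dimmest class to −0.04 in the class second from the top. Of the 17 receptor probe sets, 6 lay outside it against mutated PNA, 7 against untreated, and 4 between the controls.

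MET encodes the receptor for hepatocyte growth factor, which drives migration of muscle precursors. By the probe set 203510_at, MET read 1254 with the anti-MYCN PNA, against 2994 with the mutated PNA and 2449 in untreated cells. The anti-MYCN PNA array was the lowest by a wide margin, at 41.9% of mutated PNA and 51.2% of untreated, log2 differences of −1.26 and −0.97. The second of these is just short of 2-fold, and the controls differed by 0.29, within the range of 0.39 for their class. Among the 990 probe sets of like signal, 0.404% were as low against mutated PNA and 1.41% against untreated. In a bulk extract, fewer cells with MET and less MET RNA per cell cannot be told apart.

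The other MET probe sets showed a smaller difference or none. The probe set 211599_x_at read 259 with the anti-MYCN PNA, 363 with the mutated PNA and 417 in untreated cells. Its log2 difference was −0.49 to mutated PNA and −0.69 to untreated, of which the second lay outside the control range of 0.60. Of probe sets of like signal, 12.7% were as far below both controls. In 213807_x_at the values were 284 with the anti-MYCN PNA, 279 with the mutated PNA and 387 in untreated cells, so only the untreated array stood apart, and its small positive difference of 0.02 to mutated PNA turned to −0.03 under quantile normalization and −0.15 under median scaling. The fourth, 213816_s_at, lay under the filter at 81.1 with the anti-MYCN PNA, against 104 with the mutated PNA and 92.9 in untreated cells. Across the 3 probe sets that passed, the difference to mutated PNA thus ran from −1.26 to 0.02, and a 2-fold lower MET signal was read by 203510_at alone. The suffix _x_at marks probes that also match other transcripts.

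The MYC family binds the E-box CACGTG, and the window from 250 bases before to 50 after each annotated gene start was searched for these letters, which read the same on both strands. RefSeq windows (GRCh38.p14) were matched for 9 of the 10 receptors, FGFR1 being the other, in 18 windows. The motif was in 3 of the 18 windows, those of MET, of a downstream start of FGFR4 and of a downstream start of ALK, against 7.26% of all 35116 windows. By gene this was 3 of 9, against 8.77% of all 27305 genes, in a search added with the data in view. The MET window, chr7:116671946-116672245 on the plus strand, is shown because MET is the PAX3-FOXO1 target receptor with the lowest anti-MYCN PNA signal relative to the controls, and the EPHA7 window, chr6:93419510-93419809 on the minus strand, because EPHA7 is the receptor called against both. For FGFR4 (chr5:177089501-177089530, plus strand) and ALK (chr2:29223923-29223952, minus strand) the 30 bases around the motif are given. Capitals mark the E-box.
MET: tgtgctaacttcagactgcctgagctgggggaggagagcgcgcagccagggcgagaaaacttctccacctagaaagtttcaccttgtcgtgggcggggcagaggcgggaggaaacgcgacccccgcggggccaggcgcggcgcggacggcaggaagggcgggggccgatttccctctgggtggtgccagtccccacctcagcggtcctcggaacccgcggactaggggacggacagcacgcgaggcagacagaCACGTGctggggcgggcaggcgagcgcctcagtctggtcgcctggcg
EPHA7: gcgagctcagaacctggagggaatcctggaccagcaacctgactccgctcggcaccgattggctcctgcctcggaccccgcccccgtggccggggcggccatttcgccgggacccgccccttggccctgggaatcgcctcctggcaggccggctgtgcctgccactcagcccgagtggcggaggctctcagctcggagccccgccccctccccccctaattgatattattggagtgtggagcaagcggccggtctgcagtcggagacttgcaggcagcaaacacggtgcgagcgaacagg
FGFR4: cccacaaaggtgCACGTGtagcaggagctc
ALK: ccctccctcgttCACGTGgggttatacttg
In MET the E-box begins 4 bases into the transcript, counting the first transcribed base as 1, and in FGFR4 it begins 37 bases before the downstream start. None of the 3 EPHA7 windows holds these letters. The match is a description of these windows.

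ALK, a receptor for the ligands ALKAL1 and ALKAL2, was read by 2 probe sets that went opposite ways. The probe set 208212_s_at gave 1632 with the anti-MYCN PNA, against 1878 with the mutated PNA and 1833 in untreated cells, log2 differences of −0.20 and −0.17 that lie within the control range of 0.39. In 208211_s_at the anti-MYCN PNA array was the highest, at 693, against 499 with the mutated PNA and 474 in untreated cells. Its differences of 0.47 and 0.55 lay outside the control range of 0.47 for its class, the first of them barely. Of probe sets of like signal, 11.0% were as far above both controls. Both directions were the same under quantile normalization and median scaling, so the level of ALK with the anti-MYCN PNA has no single direction on this array. The controls differed by 0.04 and 0.07.

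FGFR4, the fibroblast growth factor receptor most typical of muscle precursors and rhabdomyosarcoma, was read by 2 probe sets that passed. The probe set 204579_at read 3409.9 with the anti-MYCN PNA, 2395 with the mutated PNA and 3191 in untreated cells. By 211237_s_at the signals were 1012 with the anti-MYCN PNA, 645 with the mutated PNA and 1025.5 in untreated cells. In both the mutated PNA array was lowest, and the other two were close. Mutated PNA minus untreated was −0.41 and −0.67 on the log2 scale, outside control ranges of 0.28 and 0.44, and 1.21% and 0.909% of probe sets of like signal were as low. Against mutated PNA the anti-MYCN PNA array was higher by 0.51 and 0.65, also outside these control ranges. Such values were reached by 7.79% and 7.98% of probe sets of like signal. Against untreated the anti-MYCN PNA array differed by 0.10 and −0.02. These 2 signs changed to −0.10 under median scaling for 204579_at and to 0.01 under quantile normalization for 211237_s_at.

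**Figure D2:**
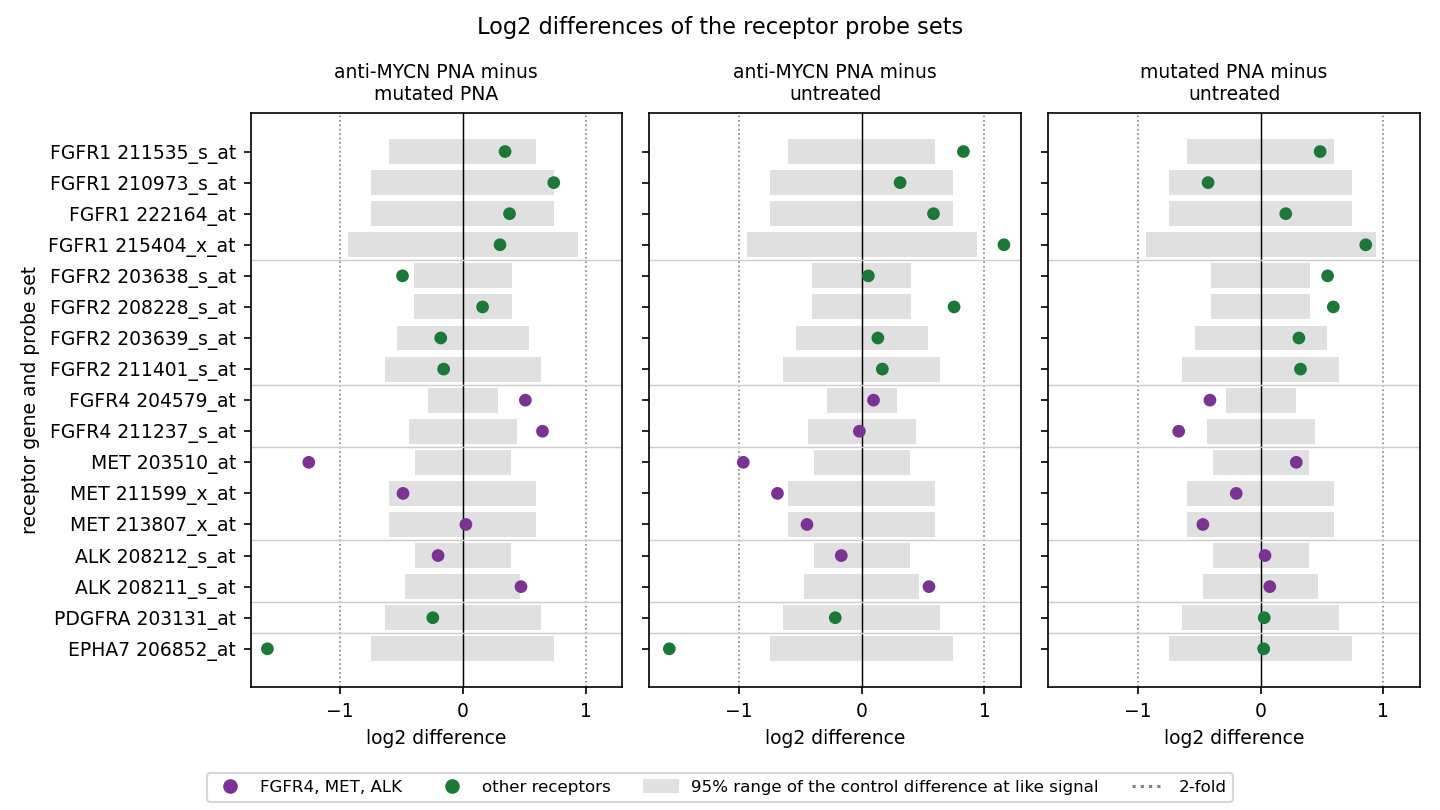
Log2 differences (horizontal axes) of the 17 receptor probe sets (vertical axis) in 3 comparisons, with the 95% range of the control difference at like signal as grey bars and 2-fold as dotted lines; purple points are FGFR4, MET and ALK and green points the other receptors. EPHA7 lies beyond 2-fold in both comparisons with the anti-MYCN PNA, the MET probe set 203510_at in the one with mutated PNA, and the right panel shows FGFR4 below and FGFR2 above 0.

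FGFR1, a receptor for many fibroblast growth factors that keeps myoblasts dividing, gave its highest signal with the anti-MYCN PNA in each of its 6 probe sets. The brightest, 211535_s_at, read 496 with the anti-MYCN PNA, 391 with the mutated PNA and 279.5 in untreated cells. In 210973_s_at the values were 279 with the anti-MYCN PNA, 167 with the mutated PNA and 224 in untreated cells. The probe set 222164_at gave 271 with the anti-MYCN PNA, 208 with the mutated PNA and 181 in untreated cells. The anti-MYCN PNA array was highest in these 3, and the order of the controls was not the same.

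The fourth FGFR1 probe set that passed, 215404_x_at, read 194 with the anti-MYCN PNA, 157 with the mutated PNA and 86.9 in untreated cells. It was the one FGFR1 probe set called against untreated, with a log2 difference of 1.16, which quantile normalization brought to 0.99. Over the 4 that passed, the difference to mutated PNA ran from 0.30 to 0.74, all within the control range of their class, and that to untreated from 0.31 to 1.16. Of probe sets of like signal, 23.2% to 30.7% were as far above both controls as these 4. Against untreated, 211535_s_at at 0.83 and 215404_x_at at 1.16 lay outside their control ranges of 0.60 and 0.94. The 2 others read 127 (207937_x_at) and 83.7 (207822_at) with the anti-MYCN PNA, 95.1 and 52.2 with the mutated PNA and 117 and 37.9 in untreated cells. Among all probe sets that passed, 45.8% were above both controls by any amount, and probe sets of 1 gene share their transcript, so 6 of 6 is not 6 independent readings. Under quantile normalization and median scaling it was 5 of 6 each time.

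FGFR2, which in its mesenchymal splice form answers to fibroblast growth factors made by epithelia, had the most probe sets, 10, of which 4 passed. The probe set 203638_s_at read 1058 with the anti-MYCN PNA, 1488 with the mutated PNA and 1020.0 in untreated cells. In 208228_s_at the signals were 1205 with the anti-MYCN PNA, 1078 with the mutated PNA and 715 in untreated cells. The untreated array was the lowest in both, and the place of the anti-MYCN PNA array was not the same.

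The dimmer FGFR2 probe set 203639_s_at gave 404 with the anti-MYCN PNA, 458 with the mutated PNA and 369 in untreated cells, and 211401_s_at gave 236, 263 and 210.3 in that order of conditions. Mutated PNA minus untreated was positive in all 4, at 0.55, 0.59, 0.31 and 0.32 on the log2 scale, and the first 2 lay outside the control range of 0.40. Only 0.808% and 0.606% of probe sets of like signal were as high. Anti-MYCN PNA minus mutated PNA ran from −0.49 to 0.16, and anti-MYCN PNA minus untreated from 0.05 to 0.75, and the ends of −0.49 (203638_s_at) and 0.75 (208228_s_at) lay outside the control range of 0.40. Under median scaling the difference to untreated turned negative in 3 of the 4 (−0.15, −0.07 and −0.03), and the 0.16 of 208228_s_at to mutated PNA turned to −0.02.

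Between the controls, the 4 receptor probe sets outside the 95% range were therefore 2 of FGFR2, higher with the mutated PNA, and both of FGFR4, lower with it. That is 4 of 17, from 2 genes, against 5.05% of all probe sets. These directions hold only if the array titled untreated is what its title says.

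FGFR3, a receptor that restrains growth of cartilage, was dim on all 3 arrays. Its probe set 204379_s_at read 109 with the anti-MYCN PNA, 97.1 with the mutated PNA and 122 in untreated cells, and 204380_s_at is taken up in the closing section. PDGFRB, a receptor for platelet-derived growth factor typical of pericytes and fibroblasts, read 65.1 with the anti-MYCN PNA, 104 with the mutated PNA and 81.1 in untreated cells. KIT, the receptor for stem cell factor, read 13.2 with the anti-MYCN PNA, 28.1 with the mutated PNA and 28.4 in untreated cells, close to the floor of 23.4 under which signals were not told apart. These 3 genes had no signal that a comparison could rest on.

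PDGFRA, the receptor for platelet-derived growth factor found on mesenchymal progenitors, was measured above the filter by 203131_at alone. Its signal was 260.5 with the anti-MYCN PNA, against 309 with the mutated PNA and 303 in untreated cells. The differences of −0.24 and −0.22 lay well within the control range of 0.64. A second probe set, 215305_at, read 61.5 with the anti-MYCN PNA, 94.7 with the mutated PNA and 61.1 in untreated cells, and 211533_at lay under the floor on all 3 arrays.

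EPHA7, a receptor for ephrin-A ligands that guides growing axons, was the receptor furthest below both controls. Its 1 probe set, 206852_at, read 97.0 with the anti-MYCN PNA, against 293 with the mutated PNA and 288 in untreated cells. The controls were alike, differing by 0.02, and the anti-MYCN PNA signal was 33.2% and 33.7% of them, log2 differences of −1.59 and −1.57. The control range at this signal was 0.75. Of the 990 probe sets of like signal, 0.505% were as low against mutated PNA and 0.202% against both controls. The receptors were chosen with earlier results of these data known, so these shares only describe its place. Quantile normalization gave −1.77 for each comparison. No second probe set was there to set beside it, and its anti-MYCN PNA signal lay below the filter of 117.

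**Figure D3:**
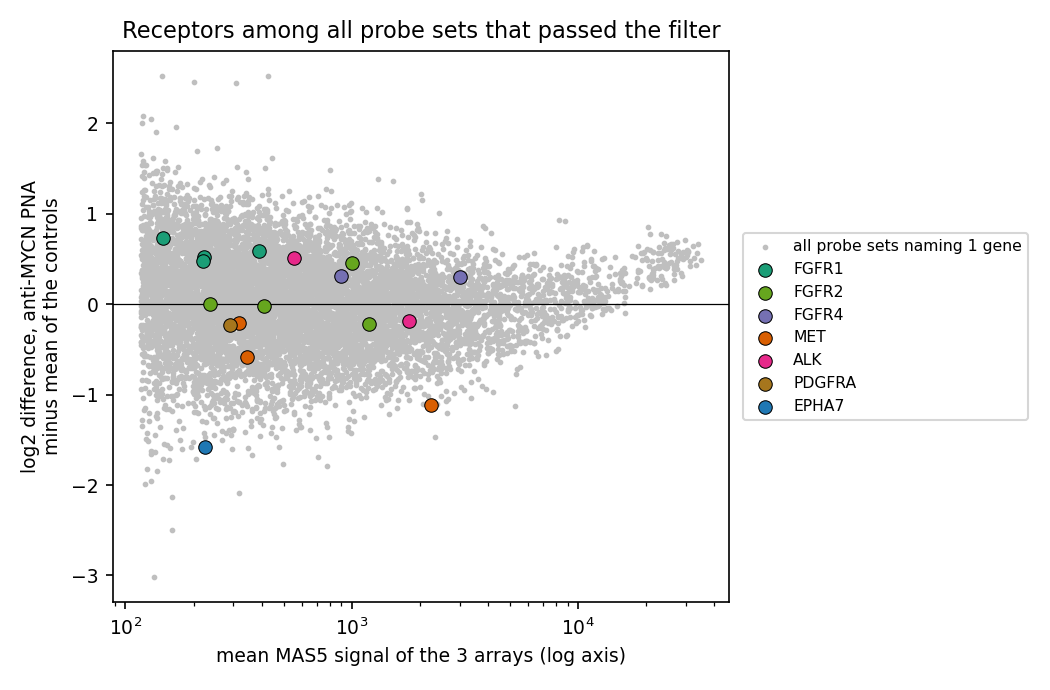
Log2 difference between the anti-MYCN PNA array and the average of its 2 controls (vertical axis) against mean MAS5 signal (horizontal log axis) for all 9899 probe sets that passed the filter (grey) and the 17 of the receptors (coloured by gene). EPHA7 at −1.58 and the MET probe set 203510_at at −1.11 lie at the lower edge of the cloud, and the 4 FGFR1 points, from 0.48 to 0.73, lie inside it.

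The 3 PAX3-FOXO1 target receptors did not move as one. Their 7 probe sets that passed had a median difference of −0.18 to the mean of the controls, against 0.23 for the 10 of the other receptors and 0.04 for all probe sets. Above both controls were 2 of the 7 and below both 3 of the 7, while 5 and 2 of the 10 others were. The shares over all probe sets were 45.8% above and 39.3% below. Within the target receptors the range was wide, from −1.26 to 0.65 against mutated PNA. It was wider among the others, from −1.59, the value of EPHA7, to 0.74. By gene, the median difference to the mean of the controls was 0.31 for FGFR4, −0.59 for MET and 0.16 for ALK. Among the others it was 0.56 for FGFR1, −0.01 for FGFR2, −0.23 for PDGFRA and −1.58 for EPHA7. The gap between −0.18 and 0.23 thus depends on how many probe sets each gene has. With each gene counted once its direction turned. The middle value of the target receptors was then 0.16, and that of the others lay between −0.23 and −0.01. The split was not tested, since the probe sets share genes.

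The genes around the receptors were taken as 5 lists, each gene by its brightest probe set, and counted where the anti-MYCN PNA array was at least 1.5-fold from both controls. Over all 6745 genes this was so for 8.27% on the higher and 7.37% on the lower side, and the median difference to the mean of the controls was 0.06. Of 9 ligand genes that passed, 2 were higher and none lower, and their median was 0.44. With the filter at the 75th percentile 4 ligand genes were left and the median turned to −0.30, against 0.01 for all genes, so its direction rests on the dimmer genes. The 2 higher genes encode ephrin-A ligands, the partners of EPHA7. EFNA3 read 294 with the anti-MYCN PNA, 122.5 with the mutated PNA and 117 in untreated cells. EFNA5 read 483 with the anti-MYCN PNA, 284 with the mutated PNA and 301 in untreated cells. The ligand of MET, HGF, did not pass the filter, nor did KITLG, and FGF2 read 153 with the anti-MYCN PNA, 152 with the mutated PNA and 151 in untreated cells.

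Among the 14 other receptor tyrosine kinases that passed, 3 were higher and 1 lower by this rule, and the median was 0.48, or 0.05 over the 3 genes left with the filter at the 75th percentile. TYRO3, a receptor of the TAM family, read 550.0 with the anti-MYCN PNA, 281 with the mutated PNA and 263 in untreated cells. The insulin receptor gene INSR read 239 with the anti-MYCN PNA, 134.5 with the mutated PNA and 131 in untreated cells. AATK, the apoptosis-associated tyrosine kinase, read 577 with the anti-MYCN PNA, 215 with the mutated PNA and 375 in untreated cells. EGFR, the epidermal growth factor receptor, went the other way, at 80.7 with the anti-MYCN PNA, against 137 with the mutated PNA and 153 in untreated cells. Its anti-MYCN PNA signal lay under the filter, which it passed through the controls, and it was no longer 1.5-fold lower with the pseudocount of 32. Between the controls EPHA2, another ephrin receptor, was lower with the mutated PNA, at 215.5 against 462 in untreated cells, and read 423 with the anti-MYCN PNA.

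**Figure D4:**
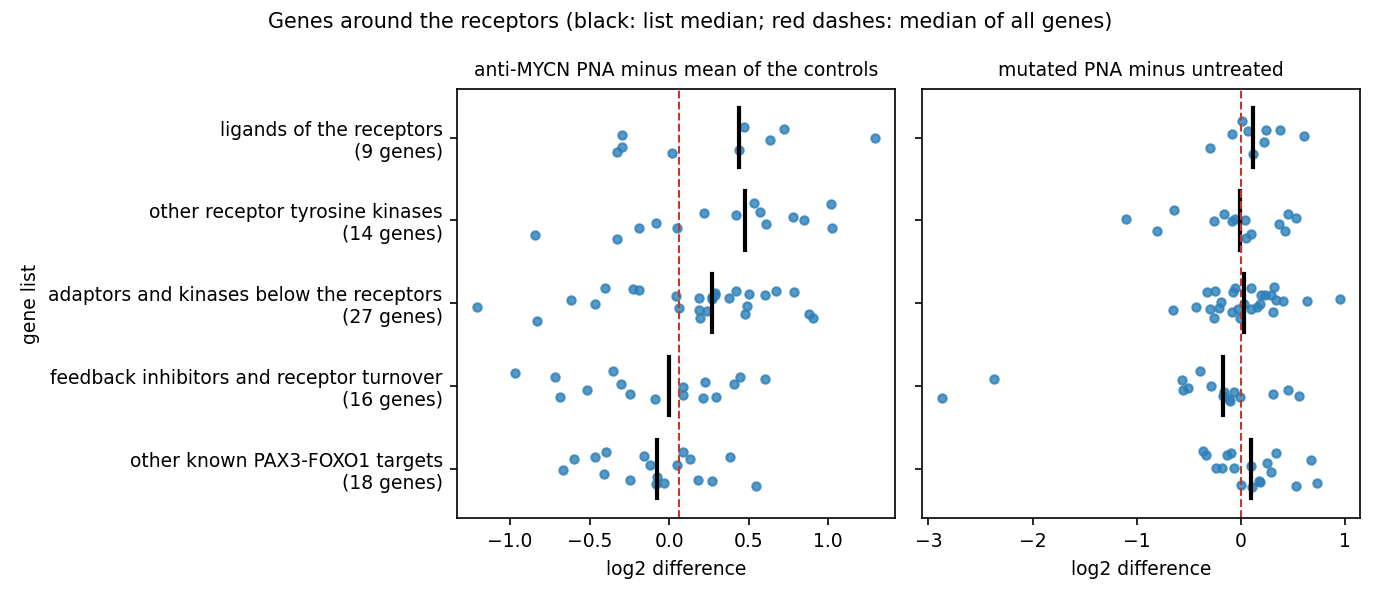
Log2 differences (horizontal axes) of the genes in 5 lists (vertical axis), 1 point per gene, for anti-MYCN PNA minus the mean of the controls (left) and mutated PNA minus untreated (right), with list medians as black bars and the median of all genes as a red dashed line. The medians of the ligands (0.44) and other receptor tyrosine kinases (0.48) lie right of that of all genes (0.06) in the left panel. With the filter at the 75th percentile, which is not drawn, they were −0.30 and 0.05, against 0.01 for all genes. DUSP6 and SPRY4 are the 2 points far to the left in the right panel.

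Of 27 adaptor and kinase genes that passed, 1 was higher and 2 were lower, with a median of 0.27. MAPK3, which encodes the kinase ERK1, read 398 with the anti-MYCN PNA, 208 with the mutated PNA and 256 in untreated cells, in an _x_at probe set. The SRC-family kinase gene YES1 read 1412 with the anti-MYCN PNA, 3247.5 with the mutated PNA and 3272 in untreated cells. PTPN11, the phosphatase SHP2 that links receptors to RAS, read 2378 with the anti-MYCN PNA, 4369 with the mutated PNA and 4089 in untreated cells. The log2 differences of YES1 and PTPN11 to the nearer control were −1.20 and −0.78. With the median over the probe sets of a gene, 1 gene of the list was higher and 1 lower.

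In the list of feedback inhibitors and receptor turnover none of 16 genes was higher and 1 was lower. Their median was 0.24 against mutated PNA and −0.23 against untreated, opposite shifts that leave 0.00 against the mean of the controls. ADAM10, a protease that cleaves receptors and ephrins from the cell surface, read 1901 with the anti-MYCN PNA, 2937 with the mutated PNA and 3317.5 in untreated cells. DUSP6 and SPRY4, feedback inhibitors of receptor signalling to ERK, were the 2 genes of the list at least 2-fold lower with the mutated PNA than in untreated cells, by log2 differences of −2.87 and −2.37, against 0.371% of all genes. SPRY4 read 305 with the anti-MYCN PNA, 88.3 with the mutated PNA and 457 in untreated cells, lowest with the mutated PNA as both FGFR4 probe sets were. DUSP6 read 284 with the anti-MYCN PNA, 206 with the mutated PNA and 1502 in untreated cells, and was thus low on both PNA arrays.

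The list of other known PAX3-FOXO1 targets had no gene higher and 1 lower among 18, with a median of −0.08, which turned to 0.01 with the filter at the 75th percentile. The lower gene was NRCAM, a cell adhesion gene, at 290 with the anti-MYCN PNA, against 476.5 with the mutated PNA and 443 in untreated cells. The list includes MYCN itself, the gene the PNA is aimed at, with log2 differences of −0.35 to mutated PNA and −0.59 to untreated. The first lay within the control range of 0.39 at its signal, the second outside it, and the controls differed by −0.24. The list also includes IGF1R, which is counted among the other receptor tyrosine kinases too. By its brightest probe set MET, with a smaller difference of −0.97, lay further below its controls than any of these 18, whereas its other 2 that passed lay nearer to theirs than NRCAM.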

How the data were processed

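The authors deposited 1 table of signal intensities on a linear scale. Per the submitters' processing notes they were made with MAS5 and GCOS, which summarise each probe set as 1 value and multiply each array by 1 factor; versions are not given in the sources used here. The 2% trimmed mean was 500.2 on all 3 arrays. The number of arrays limits the precision. Signals were rescaled to a common trimmed mean, set to a floor of 23.4 (the 25th percentile) where lower, and taken to log2, and probe sets naming 1 gene with a mean of at least 117 were kept. Gene names came from a platform annotation of GEO, updated through Entrez identifiers. The call rule was tested on simulated data, with the noise of every array drawn from the differences between the 2 controls. The anti-MYCN PNA array differed from the controls more widely than they did from each other. The simulation therefore cannot give its rate of false calls. Members and lists were chosen with earlier results of these data known, and the control range in 10 classes of signal and the E-box search were added with the data in view. All receptors are named, and list genes at least 1.5-fold from both controls, or 2-fold between the controls. FGF2, HGF, KITLG and KRT18 were chosen after their values were seen. The alternatives were quantile normalization, median scaling, no floor, a pseudocount of 32, other filters, thresholds of 1.5-fold and 3-fold, no _x_at or _s_at probe sets and 1 probe set per gene. Tools were matplotlib 3.10.9, scipy 1.17.1, pandas 2.3.3 and numpy 2.4.6 under Python 3.11.15.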

Additional observations from a re-analysis of the deposited data

Results flagged for a closer look

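In 3 of the 15 receptor probe sets under the signal filter, which are outside the counts over the 17 that passed, the anti-MYCN PNA signal was at least 2-fold above both controls. The FGFR2 probe set 211398_at read 104.8 with the anti-MYCN PNA, against 38.0 with the mutated PNA and 26.7 in untreated cells. Another of FGFR2, 211400_at, read 52.3 with the anti-MYCN PNA, against 2.5 with the mutated PNA and 2.8 in untreated cells. The FGFR3 probe set 204380_s_at read 62.5 with the anti-MYCN PNA, against 7.2 with the mutated PNA and 4.0 in untreated cells. In the last 2 both controls lay under the floor of 23.4. Of all 9165 probe sets under the filter, 9.1% were as far above both controls and 2.42% as far below. The median signal of all gene probe sets was 127 with the anti-MYCN PNA, 112 with the mutated PNA and 111 in untreated cells, and its part in these 3 values was not tested.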

How the results depend on the processing

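No paired analysis was possible because each condition has 1 array. The 51 log2 differences of the receptor probe sets moved by at most 0.20 under quantile normalization or median scaling and 0.26 with the pseudocount, less than the SD of the control difference (0.30), and no called value changed sign. Median scaling brought the median of all probe sets, 0.04 in both comparisons with the anti-MYCN PNA, to −0.14 against mutated PNA and −0.16 against untreated. The split of all probe sets against mutated PNA, 271 higher and 270 lower, was 210 and 342 under quantile normalization and 129 and 532 under median scaling. Against untreated, 298 and 275 became 231 and 348, and 128 and 559. Against both controls, 117 and 162 became 76 and 219, and 27 and 355. Of 120 recomputed counts 57 stayed within 1.5 times, and the other 63 follow, each set of counts against mutated PNA, untreated and both controls, then between the controls. With no filter 7, 7, 5 and 1 of 32 receptor probe sets were called, and 2257, 2330, 1335 and 875 of all. With the filter at the 75th percentile it was 1, 0 and 0 of 7 receptor probe sets (controls unchanged at 0), and 121, 108, 54 and 8 of all. At 1.5-fold 4, 6, 2 and 3 receptor probe sets were called, and 2406, 2402, 1597 and 510 of all. At 3-fold it was 1, 0, 0 and 0, and 59, 57, 16 and 19 of all. The pseudocount of 32 gave 338, 364, 146 and 40 of all, leaving out _x_at and _s_at probe sets 265, 282, 132 and 31, and with 1 probe set per gene 339, 363, 163 and 50. Receptor probe sets against untreated were 1 under each of these 3 and under quantile normalization. Against both controls median scaling called 2 receptor probe sets, EPHA7 and MET 203510_at. The list counts at 1.5-fold from both controls, higher and lower together, depended on the filter and on how many genes it left. With none, ligands had 10 of 32 (9 higher) and other receptor tyrosine kinases 11 of 41 (9 higher). Adaptors had 7 of 33 (4 higher), feedback genes 2 of 21 (1 higher) and PAX3-FOXO1 targets 2 of 20 (1 higher). The share over all genes was not computed at these settings. With the 75th percentile, ligands had 0 of 4, other receptor tyrosine kinases 0 of 3 and PAX3-FOXO1 targets 0 of 14. Median scaling gave ligands 1, feedback genes 2 and PAX3-FOXO1 targets 2. The pseudocount gave other receptor tyrosine kinases 2 and PAX3-FOXO1 targets 0. Without _x_at and _s_at probe sets other receptor tyrosine kinases had 1 of 6 genes and adaptors 1 of 19. The median over probe sets gave PAX3-FOXO1 targets 2. Fewer or more probe sets enter under the filters and suffix settings; for the others the cause was not tested. Detection calls were not used here, so dim signals such as those of KIT, PDGFRB and FGFR3 have no limit of detection.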
